A study of Mus musculus with 24 samples.

Results

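The genes described here are 6 markers of the fetal liver that are re-expressed in many liver tumours, chosen by symbol: Afp, H19, Igf2, Dlk1, Gpc3 and Lin28b. They were read in every library of 3 tables of gene expression, which list 31053, 25876 and 20729 genes. All 6 were listed in the hepatocyte and cholangiocyte tables, and 5 were listed in the Smart-Seq table, where Lin28b was not analysed. Values are FPKM, fragments scaled to transcript length and library size, so that levels can be set beside each other between genes of 1 table.

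The series holds 24 libraries made from livers of adult wild-type BALB/c mice. The hepatocyte table compares 3 libraries labelled primary hepatocytes (Pri-Hep) with 3 libraries each of hepatocyte organoids (Hep-Orgs) at passages P1, P5 and P10, grown in Matrigel from EpCAM-negative cells in a hepatocyte medium (Hep-Med) with the Notch inhibitor DAPT and dexamethasone. The cholangiocyte table compares P0, P5 and P10 of organoids grown from EpCAM-positive cells (cholangiocyte organoids, Cho-Orgs), again with 3 libraries a passage. The Smart-Seq table holds Hep-Orgs picked at P0 by their shape, which was grape-like, round-like or intermediate, with 1 library a shape. By the study's text these shapes arose in the original Hep-Med, before DAPT and dexamethasone were added, and the labels give no medium for them. No engineered allele was reported for any group, and the substrain of the mice was not given. The study's legends tie libraries that share a number to the same mouse.

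During development, hepatoblasts give rise to both hepatocytes and cholangiocytes, and a set of genes active in these progenitors is silenced in the liver soon after birth. Afp encodes alpha-fetoprotein, the main plasma protein of the fetus and a serum marker of liver cancer. H19 is a non-coding RNA and Igf2 a growth factor that are imprinted in opposite directions from 1 shared control region, Dlk1 is a membrane protein of the delta family used to isolate hepatoblasts, Gpc3 is a heparan sulfate proteoglycan of the cell surface, and Lin28b is an RNA-binding protein that blocks the maturation of let-7 microRNAs.

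On GRCm38, Afp (ENSMUSG00000054932) lies on the plus strand at chr5:90490737-90508907, and Alb, the adult plasma protein gene from which it arose by duplication, lies 14134 bases before it. H19 (ENSMUSG00000000031) and Igf2 (ENSMUSG00000048583) lie on the minus strand at chr7:142575529-142578143 and chr7:142650766-142666816, with 72622 bases between them. Dlk1 (ENSMUSG00000040856) lies on the plus strand at chr12:109452823-109463336, at one end of an imprinted interval that runs for 828275 bases to the end of Dio3. Gpc3 (ENSMUSG00000055653) lies on the minus strand at chrX:52272426-52613950 and Lin28b (ENSMUSG00000063804) on the minus strand at chr10:45376620-45486395. Genes of the opposite strand overlap Afp, H19, Igf2 and Gpc3, and the protein-coding model Gm49394 overlaps Igf2 on its own strand. The study describes its bulk reads as strand-specific, but the strand setting of the counting was not given in the sources used here. Whether reads of these members and their partners were told apart is therefore not known.

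The hepatocyte table held 14068906 to 27160365 fragments per library, whereas depth was estimated as 37460000 to 39930000 for Cho-Orgs and as 40050000 to 40350000 for the Smart-Seq libraries. The labels were set beside cell type markers before the results. In the 3 Pri-Hep libraries, 10 cholangiocyte markers summed to 3831 to 3927 FPKM, of which Spp1 made 3090 to 3203 FPKM. The 12 adult hepatocyte markers summed to 923 to 961 FPKM in these libraries. Krt19, a biliary keratin, reached 229 to 241 FPKM there and Cyp2e1, a cytochrome P450 of adult hepatocytes, 0 to 0.0300 FPKM, so these libraries went against their label and are called the libraries labelled Pri-Hep. The 9 Hep-Orgs libraries of the table had the same profile, with cholangiocyte sums of 3773 to 3990 FPKM, adult hepatocyte sums of 937 to 989 FPKM, Krt19 at 235 to 247 FPKM and Cyp2e1 at 0, so their label too rests on the submitters and not on these markers. Between pairs of the 12 libraries of that table, the chi-square of the fragment counts per degree of freedom was 1.90 to 3.04 within groups and 1.80 to 4.36 between groups. The medians were 2.17 within groups and 2.48 between groups, so libraries of different groups were about as alike as replicates. Each pair differed by more than the sampling noise of the counts, but this cannot show that libraries came from different sources. All 12 were kept. In Cho-Orgs at P0, the adult hepatocyte markers summed to 7065 to 7890 FPKM beside 5245 to 6588 FPKM for the cholangiocyte markers. By P10 the same sums were 93.2 to 98.9 and 3387 to 3422 FPKM. The first was led by Alb at P0, with a mean of 4994 FPKM, and by Hnf4a at P10, with 56.4 FPKM. In the second, Spp1 fell from a mean of 3682 to 527 FPKM. Krt19 rose from 1045 to 1402 FPKM and Krt7 from 248 to 920 FPKM. In the limma test used below, 4 of the 10 cholangiocyte markers were higher and 4 lower at P10 than at P0. Among all genes tested, 41.0% were higher and 31.3% lower.

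The 250 bases before the RefSeq start of Afp and of the other 3 genes of the albumin family are shown because these 4 genes all lie on chromosome 5 and were measured together below. Capitals mark GTTAAT or its reverse complement ATTAAC, letters of the motif bound by HNF1 factors, which activate liver plasma protein genes. The window of Dlk1 is shown because Dlk1 was the member with a different course over the passages, and its capitals mark TGTTTAC, letters of the forkhead motif bound by FOXA factors. The builds and strands are GRCm38.p6 chr5:90490464-90490713 plus for Afp, chr5:90460620-90460869 plus for Alb, chr5:90518699-90518948 plus for Afm, chr5:89457899-89458148 minus for Gc and chr12:109452573-109452822 plus for Dlk1.
Afp: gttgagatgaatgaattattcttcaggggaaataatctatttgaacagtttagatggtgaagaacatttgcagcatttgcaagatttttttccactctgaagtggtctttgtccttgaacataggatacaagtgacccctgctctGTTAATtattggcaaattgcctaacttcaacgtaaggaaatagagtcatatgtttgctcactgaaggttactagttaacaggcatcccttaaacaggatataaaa
Alb: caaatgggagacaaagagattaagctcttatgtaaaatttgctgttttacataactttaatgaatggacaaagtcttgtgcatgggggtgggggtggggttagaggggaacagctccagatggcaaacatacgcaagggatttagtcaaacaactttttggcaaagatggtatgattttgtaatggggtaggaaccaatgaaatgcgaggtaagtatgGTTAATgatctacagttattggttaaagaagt
Afm: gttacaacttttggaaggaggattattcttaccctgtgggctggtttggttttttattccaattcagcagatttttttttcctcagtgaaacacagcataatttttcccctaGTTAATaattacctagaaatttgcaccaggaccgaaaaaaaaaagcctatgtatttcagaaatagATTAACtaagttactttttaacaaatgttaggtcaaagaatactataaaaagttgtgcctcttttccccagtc
Gc: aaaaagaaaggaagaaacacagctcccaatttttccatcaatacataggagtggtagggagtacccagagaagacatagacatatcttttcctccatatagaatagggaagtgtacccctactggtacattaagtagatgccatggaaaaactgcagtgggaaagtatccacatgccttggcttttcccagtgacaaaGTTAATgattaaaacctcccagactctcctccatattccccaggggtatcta
Dlk1: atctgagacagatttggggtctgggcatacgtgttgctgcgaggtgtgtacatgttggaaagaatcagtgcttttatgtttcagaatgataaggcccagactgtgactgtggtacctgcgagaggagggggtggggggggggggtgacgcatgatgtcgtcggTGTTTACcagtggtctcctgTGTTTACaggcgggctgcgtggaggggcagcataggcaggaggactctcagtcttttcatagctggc
GTTAAT was found on either strand in all 4 albumin family windows, and in 6.43% of the 32851 RefSeq promoter windows of the same 250 bases. It began 105 bases before the start in Afp and 32 bases before the start in Alb. TGTTTAC was found at 87 and 67 bases before the start in Dlk1 and in 3.17% of all windows. Of the 6 members, 5 had a RefSeq entry, and GTTAAT was not among the letters of the windows of Dlk1, Gpc3, Lin28b and the 4 entries of Igf2. These matches are descriptions of letters.

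In Cho-Orgs, the question was how expression changed with passage. Afp was among the 95 most abundant genes of each P0 library and fell at both steps, and H19, Igf2 and Gpc3 fell from P0 to P5. Dlk1 fell from P0 to P5 and rose again by P10. Of the 6 genes, 5 were tested with limma on log2(FPKM + 1), and Lin28b was below the filter of 1 FPKM in at least 3 libraries. All 5 were lower at P5 than at P0 with a Benjamini-Hochberg adjusted p under 0.05, where 22.6% of the 11593 genes tested were lower and 34.0% higher. All 5 were also lower at P10 than at P0, where 31.3% of the genes were lower and 41.0% higher, and these comparisons share the P0 libraries. H19 and Igf2 passed the filter through the P0 libraries alone and so had to be lower later, and their calls add nothing to these counts. From P5 to P10, 1 member fell and 1 rose, where 30.5% of the genes tested fell and 31.0% rose. With median-ratio size factors, the share of higher genes among those called went from 60.0% to 47.1% for P5 against P0 and from 56.7% to 49.5% for P10 against P0, and the members called were 5 in both.

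**Figure D1:**
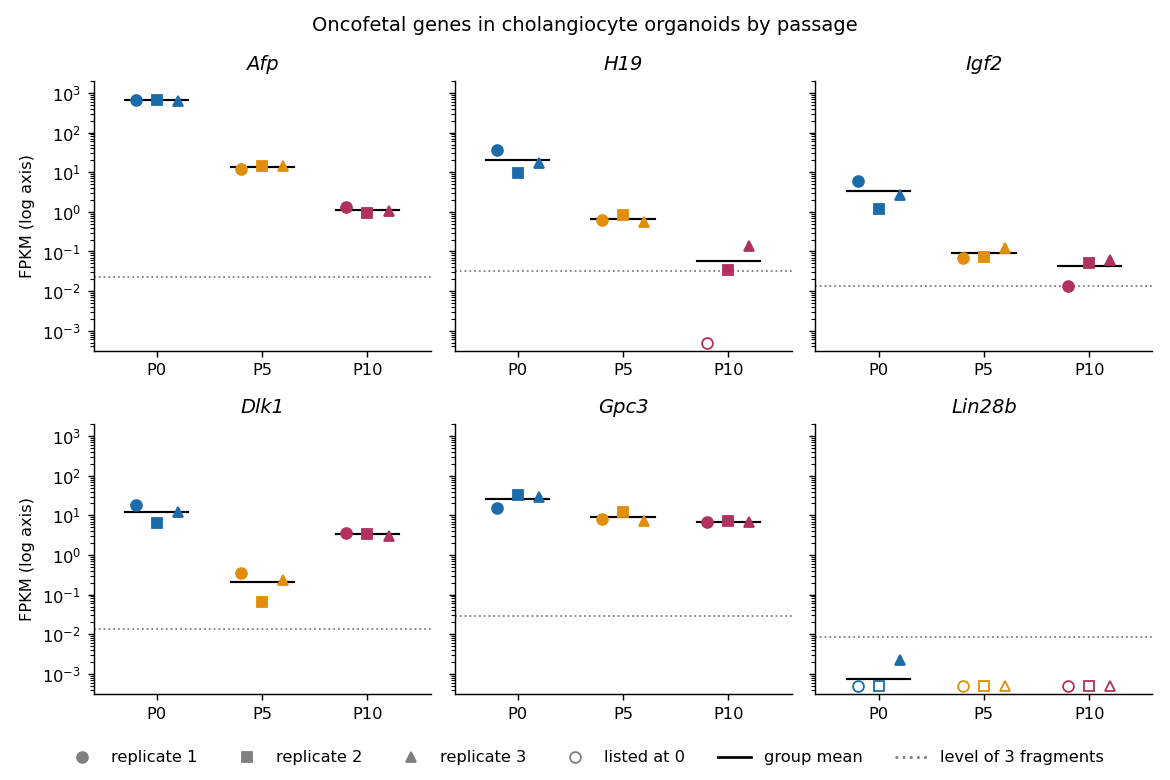
FPKM of the 6 genes on a log axis in the 9 Cho-Orgs libraries by passage, with symbols for the replicates, a black line for the group mean, open symbols at the bottom for libraries listed at 0 and a dotted line at the level of 3 fragments. Afp falls from 652 to 1.09 FPKM on average, Dlk1 is lowest at P5, and Lin28b stays under the dotted line.

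Afp had 674, 660 and 621 FPKM in the 3 P0 libraries. At P5 it had 11.8, 14.5 and 14.0 FPKM, and at P10 it had 1.31, 0.921 and 1.05 FPKM. The 3 passages formed 3 separate ranges, and the P0 libraries were close to each other, with a coefficient of variation of 4.25%. The mean was 48.5-fold lower at P5 and 597-fold lower at P10 than at P0, and 12.3-fold lower at P10 than at P5. On the log2(FPKM + 1) scale the differences were -5.50 ± 0.09 (SE, limma adjusted p = 1.96e-10) for P5 against P0, -8.29 ± 0.09 (limma adjusted p = 5.87e-12) for P10 against P0 and -2.78 ± 0.09 (limma adjusted p = 2.76e-08) for P10 against P5. Afp thus ordered as P0, P5 and P10, with each neighbour different beyond its spread. The adult hepatocyte marker sum fell over the same passages, as given above, and its part in the Afp result was not tested. In bulk libraries, fewer cells of a type and less RNA per cell cannot be told apart.

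The albumin family list was Afp with Alb, Afm, which encodes the vitamin E carrier afamin, and Gc, which encodes the vitamin D binding protein. Afm passed the filter through P0 alone and so had to be lower later. Alb, Gc and Afp were lower at P5 and at P10 than at P0, by log2 fold changes of -11.62, -4.72 and -8.29 from P0 to P10, where the median over all genes tested was 0.07. Alb had means of 4994 ± 406, 79.5 ± 12.4 and 0.584 ± 0.0579 FPKM (SD, n = 3) over the same passages. Gc had 300 ± 95.4, 6.37 ± 0.635 and 10.1 ± 0.997 FPKM (SD, n = 3). Gc rose slightly from P5 to P10, by 0.59 ± 0.18 on the log2 scale (SE, limma adjusted p = 0.0160), while Alb and Afp fell. Afm had 8.42 FPKM at P0 and 0.0604 and 0.0614 FPKM at P5 and P10.

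Of 14 regulators of Afp transcription, 13 were tested. From P0 to P10, 5 were higher and 5 lower, with a median log2 fold change of -0.18, and these counts are near the 41.0% higher and 31.3% lower among all genes. Hnf4a, a nuclear receptor that drives hepatocyte genes and the most abundant of the list, had 64.3 ± 10.6, 60.9 ± 2.33 and 56.4 ± 2.10 FPKM (SD, n = 3) at P0, P5 and P10, and its difference of -0.18 ± 0.10 from P0 to P10 did not pass the threshold (SE, limma adjusted p = 0.128). It passed with median-ratio size factors, at -0.26 (limma adjusted p = 0.0347), and without P0 replicate 2, at -0.27 (limma adjusted p = 0.0194). Over the same span, on the log2 scale, Foxa3, a forkhead factor, fell by 2.39 and Nr5a2, a nuclear receptor that activates Afp, fell by 1.48. Zhx2, known as the postnatal repressor of Afp, H19 and Gpc3 in mouse liver, had means of 3.82, 2.06 and 1.35 FPKM and fell by 1.03 on the log2 scale. Trp53, which encodes the p53 protein, rose by 0.96.

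H19 had 36.3, 9.38 and 17.1 FPKM in the P0 libraries, 0.636, 0.837 and 0.559 FPKM at P5, and 0, 0.0350 and 0.140 FPKM at P10. Its P0 libraries were widely spread, with a coefficient of variation of 66.2%, and stood above all later libraries. The mean was 30.9-fold lower at P5 than at P0, with a log2 difference of -3.52 ± 0.35 (SE). At P10 it was 359-fold lower than at P0, with a log2 difference of -4.18 ± 0.35 (SE). Both differences from P0 are given without a p-value, since P0 alone took H19 past the filter. Without P0 replicate 1 the folds were 19.5 and 227, and without P10 replicate 3 the second was 1196, from the few fragments left at P10. The 3 P10 libraries held an estimated 0, 3.2 and 12.9 fragments of H19, 1 library being at 0 and 1 near the floor of 3 fragments. The step from P5 to P10 was -0.66 ± 0.35 on the log2(FPKM + 1) scale and did not pass the threshold (SE, limma adjusted p = 0.130), although the libraries did not overlap. It passed with a pseudocount of 0.1, at -2.38 (limma adjusted p = 0.00137), after rescaling to TPM, at -1.20 (limma adjusted p = 0.0186), and without P0 replicate 1 or P0 replicate 2, at -0.66 (limma adjusted p = 0.00810 and 0.0223).

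Igf2 was on average less abundant than H19 at each passage. It had 5.91, 1.21 and 2.70 FPKM at P0, 0.0696, 0.0736 and 0.124 FPKM at P5, and 0.0138, 0.0515 and 0.0609 FPKM at P10. The P0 libraries stood above the rest in the same order as for H19, with replicate 1 highest and replicate 2 lowest. The mean was 36.8-fold lower at P5 and 77.9-fold lower at P10 than at P0. Without P0 replicate 1 these folds were 22.0 and 46.5. The log2 differences were -1.82 ± 0.32 and -1.88 ± 0.32 (SE), which understate the folds because of the pseudocount of 1 and have no p-value here, since Igf2 too passed the filter through P0 alone. Between P5 and P10 the difference of -0.06 ± 0.32 did not pass the threshold (SE, limma adjusted p = 0.876). Dlk1 had the same order among the P0 libraries, and so had the summed level of 10 proliferation genes, at 528, 359 and 421 FPKM in replicates 1, 2 and 3. That sum was 199 to 203 FPKM at P5, and 83.0 to 89.9 FPKM at P10. All 10 genes fell at both steps, where 22.6% and 30.5% of all genes tested fell. The part of proliferation in the H19 and Igf2 results was not tested.

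Of 15 genes of the insulin-like growth factor axis, 11 were tested. From P0 to P10, 1 was higher and 6 were lower, beside 41.0% and 31.3% of all genes, with a median log2 fold change of -0.30. From P5 to P10, 1 was higher and 7 were lower, beside 31.0% and 30.5%. The largest falls were among the binding proteins, which hold the growth factors in blood and tissue. Igfbp1, a secreted product of hepatocytes, had 181 ± 14.3 FPKM at P0 and 1.74 ± 0.273 FPKM at P5 (SD, n = 3) and was listed at 0 in all 3 P10 libraries. Igfbp5 had means of 15.0, 6.41 and 0.243 FPKM, Igfbp4 40.5, 14.9 and 5.55 FPKM and Igfbp3 41.3, 35.8 and 14.5 FPKM at P0, P5 and P10, and each was lower at P10 than at P0. Igfbp7, the most abundant of the list by its mean over the 9 libraries, had 122 ± 51.1 FPKM at P0 and 134 ± 4.66 FPKM at P10 (SD, n = 3), and its difference did not pass the threshold (limma adjusted p = 0.404). Without P0 replicate 2 it passed, at 0.53 on the log2 scale (limma adjusted p = 0.00129), and without P0 replicate 1 it was -0.02. Igf1, the adult growth factor, had a mean of 0.00294 FPKM at P0 and was listed at 0 afterwards.

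Dlk1 had 18.5, 6.29 and 12.3 FPKM in the P0 libraries. It had 0.345, 0.0641 and 0.229 FPKM at P5, and 3.62, 3.31 and 2.96 FPKM at P10. The lowest level was at P5, the 3 passages did not overlap, and the P10 libraries lay between the others. The mean was 58.1-fold lower at P5 than at P0 and 15.5-fold higher at P10 than at P5, and it was 3.75-fold lower at P10 than at P0. The log2 differences were -3.36 ± 0.28 (SE, limma adjusted p = 8.88e-06) for P5 against P0, 1.83 ± 0.28 (SE, limma adjusted p = 0.000363) for P10 against P5 and -1.53 ± 0.28 (SE, limma adjusted p = 0.000774) for P10 against P0. Each neighbour in the order P0, P10 and P5 thus differed beyond its spread.

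**Figure D2:**
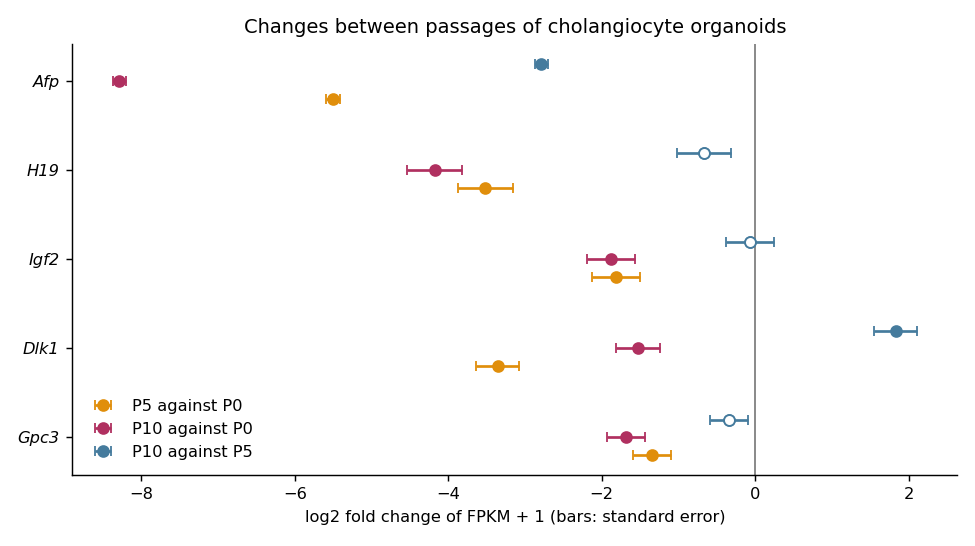
Log2 fold change of FPKM + 1 with its standard error for the 5 members tested in Cho-Orgs, with filled points for an adjusted p under 0.05 and open points otherwise. Dlk1 is to the right of 0 for P10 against P5, at 1.83, and Afp is farthest to the left for P10 against P0, at -8.29. The points of H19 and Igf2 against P0 are filled, but both genes passed the filter through P0 alone, so their fill is not a result.

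The neighbours of Dlk1 on chromosome 12 were examined for the same course, and Meg3, Mirg and Dio3 were picked after their values had been seen. Rtl1, another gene of the interval, is not shown and was below the filter, with at most 0.0172 FPKM in the 9 libraries. The course was not limited to these neighbours. Tmem45a, Tubb4b and Wbp11, the genes most like Dlk1, also had their lowest mean at P5. Tubb4b had means of 315, 172 and 228 FPKM at P0, P5 and P10. The share of all genes with this course was not counted. Meg3 (chr12:109541001-109571726), Rian (chr12:109603940-109661716) and Mirg (chr12:109729764-109749460) are non-coding RNAs of the maternal chromosome, and Dlk1 and Dio3, a deiodinase that inactivates thyroid hormone, are expressed mainly from the paternal one. Rian, the most abundant of the 20 imprinted genes by its mean over the 9 libraries, had 66.0, 31.3 and 58.2 FPKM at P0, 13.2, 12.8 and 14.6 FPKM at P5, and 50.3, 51.5 and 50.4 FPKM at P10. Meg3 had 14.8, 8.03 and 15.6 FPKM at P0, 5.83, 6.34 and 7.24 FPKM at P5, and 36.8, 38.6 and 37.0 FPKM at P10. Both were lowest at P5, with no overlap between P5 and the other passages. Rian fell by 1.80 ± 0.22 (SE, limma adjusted p = 8.84e-05) from P0 to P5 and rose by 1.83 ± 0.22 (SE, limma adjusted p = 6.54e-05) from P5 to P10 on the log2 scale. Meg3 fell by 0.84 ± 0.19 (SE, limma adjusted p = 0.00459) and rose by 2.37 ± 0.19 (SE, limma adjusted p = 6.55e-06), ending above its P0 level by 1.53 ± 0.19 (SE, limma adjusted p = 5.92e-05).

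Mirg followed with 5.31, 1.85 and 3.84 FPKM at P0, 0.855, 1.15 and 1.31 FPKM at P5, and 5.18, 6.65 and 5.56 FPKM at P10, falling by 1.08 ± 0.24 (SE, limma adjusted p = 0.00359) and rising by 1.69 ± 0.24 (SE, limma adjusted p = 0.000203). Dio3 was below the filter and not tested, with 0.148 to 0.201 FPKM at P0, 0 to 0.0142 FPKM at P5, and 0.590 to 0.885 FPKM at P10. The P10 level of these genes relative to P0 was not alike. Dlk1 was lower, Meg3 was higher, and Rian differed by 0.04 ± 0.22 (SE, limma adjusted p = 0.886), a difference that became -0.28 without P0 replicate 2 (limma adjusted p = 0.00460). Mirg was higher by 0.61 ± 0.24 (SE, limma adjusted p = 0.0411), which did not pass with the mouse number as a block (limma adjusted p = 0.0562) or under most other settings.

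**Figure D3:**
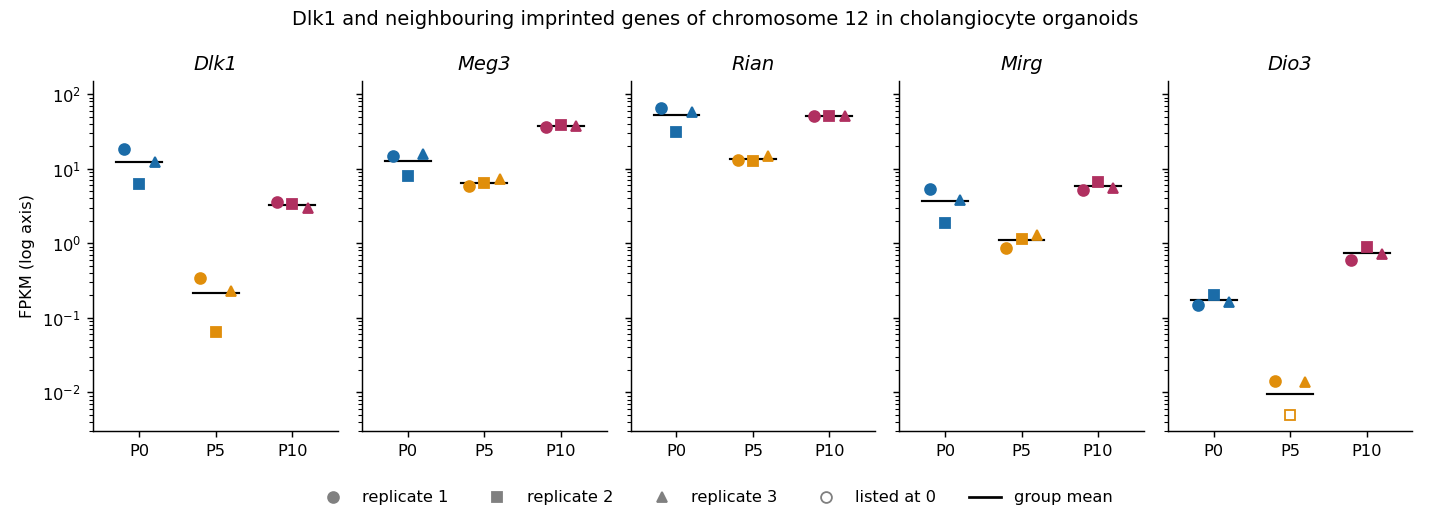
FPKM of Dlk1 and 4 neighbouring imprinted genes on a log axis in the 9 Cho-Orgs libraries, with symbols for the replicates, black lines for the group means and an open symbol for a library listed at 0. All 5 are lowest at P5, and Dlk1 is the gene whose P10 libraries all lie below its P0 libraries.

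Of the 20 imprinted genes, a list with neither Dlk1, H19 nor Igf2, 12 were tested. From P0 to P5, 2 were higher and 7 lower, beside 34.0% and 22.6% of all genes. From P5 to P10, 5 were higher and 5 lower, beside 31.0% and 30.5%. Of the 12, Slc38a4, Sgce and Zim1 passed the filter through P0 alone and had to be lower later. The largest changes from P0 to P10 were falls. Nnat, which encodes the membrane protein neuronatin, had means of 12.2, 1.43 and 0.0254 FPKM at P0, P5 and P10. Slc38a4, an amino acid transporter of liver and placenta, had 6.71, 0.0698 and 0.00199 FPKM, and Sgce, a sarcoglycan, had 5.48, 0.918 and 0.127 FPKM. Peg3, a paternally expressed zinc finger gene, had 59.3 ± 14.9, 45.2 ± 3.56 and 8.08 ± 0.113 FPKM (SD, n = 3), and fell mainly after P5, by 2.35 on the log2 scale (limma adjusted p = 1.21e-06).

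Dlk1 lacks the domain through which other delta proteins activate Notch receptors. Of 10 delta and Notch genes, 6 were tested in Cho-Orgs. From P0 to P5, 4 rose and 1 fell, beside 34.0% and 22.6% of all genes. From P0 to P10, 3 rose and 1 fell, beside 41.0% and 31.3%. Jag2, a Notch ligand, had 12.2 ± 0.708, 28.7 ± 0.366 and 27.1 ± 0.657 FPKM (SD, n = 3) and from P0 to P5 rose by 1.17 in log2 (limma adjusted p = 1.18e-07). Jag1, the ligand required for bile duct formation, had 6.27 ± 1.30, 8.01 ± 0.190 and 12.6 ± 0.142 FPKM (SD, n = 3). The receptors Notch3 and Notch2 had 2.28 and 10.3 FPKM at P0 and 3.34 and 8.49 FPKM at P10.

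Gpc3 had 15.7, 32.8 and 28.9 FPKM in the P0 libraries, 8.11, 12.4 and 7.43 FPKM at P5, and 6.93, 7.36 and 6.63 FPKM at P10. P0 lay above P5 and P5 above P10 with no overlap, but here P0 replicate 1 was the lowest of its group. The mean was 2.77-fold lower at P5 and 3.70-fold lower at P10 than at P0, with log2 differences of -1.35 ± 0.25 (SE, limma adjusted p = 0.00125) and -1.69 ± 0.25 (SE, limma adjusted p = 0.000164). From P5 to P10 the difference of -0.34 ± 0.25 did not pass the threshold (SE, limma adjusted p = 0.258). Of the 5 other glypicans, 3 were tested, with 1 higher at P5 and 1 lower at P10 than at P0. Among all genes tested, 34.0% were higher at P5 and 31.3% lower at P10 than at P0. Gpc4, the most abundant of them, had 3.91 ± 1.36, 3.16 ± 0.271 and 1.25 ± 0.0162 FPKM (SD, n = 3) and from P0 to P10 it fell by 1.09 in log2 (limma adjusted p = 0.000152).

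Lin28b was at 0 in 8 of the 9 Cho-Orgs libraries and at 0.00224 FPKM in P0 replicate 3, under the level of 3 fragments, which was 0.00829 to 0.00884 FPKM. It was not detectable at this depth. Lin28a, its paralog, was at 0 to 0.0303 FPKM. Of 14 genes around LIN28 and let-7, 7 were tested. At P10, 2 were higher and 2 lower than at P0, with a median log2 fold change of -0.06. Among all genes tested, 41.0% were higher and 31.3% lower in that comparison. Hmga1, a chromatin protein and target of let-7, had 16.7 ± 2.18, 23.5 ± 0.757 and 39.2 ± 0.718 FPKM (SD, n = 3) and from P0 to P10 rose by 1.19 in log2 (limma adjusted p = 6.30e-07). Tut7, which adds uridines to let-7 precursors, and Dis3l2, the nuclease that degrades them, fell by 0.24 each, and Dis3l2 did not pass without P0 replicate 1, at -0.19 (limma adjusted p = 0.0580), or without P10 replicate 1, at -0.23 (limma adjusted p = 0.0506). Dicer1, which cuts the precursors, rose by 0.16 (limma adjusted p = 0.0241), which did not pass with median-ratio size factors, at 0.09 (limma adjusted p = 0.161). Nor did Dicer1 pass with the groups compared alone (limma adjusted p = 0.0514) or without P0 replicate 2 (limma adjusted p = 0.0702). It also did not pass without P10 replicate 1 or P10 replicate 3 (limma adjusted p = 0.0568 and 0.0893).

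A further list of 15 fetal liver enzymes and oncofetal markers had 14 genes tested. From P0 to P5, 4 were higher and 3 lower, near the 34.0% and 22.6% of all genes. From P0 to P10, 1 was higher and 11 were lower, beside 41.0% and 31.3% of all genes, with a median log2 fold change of -0.77. Of the 14, Mdk passed the filter through P0 alone. Spp1, the secreted phosphoprotein osteopontin, had 3682 ± 837, 805 ± 34.2 and 527 ± 2.98 FPKM (SD, n = 3), and it is also a cholangiocyte marker. Mdk, the heparin-binding growth factor midkine, had 3.93, 0.511 and 0.0862 FPKM, Bex1 had 102, 77.5 and 25.7 FPKM, and Golm1, a Golgi protein raised in liver cancer, had 145, 118 and 58.2 FPKM at P0, P5 and P10. From P5 to P10 no gene of this list rose and 12 fell, beside 31.0% and 30.5% of all genes.

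Among the 6 genes, Afp was the most abundant at P0, followed by Gpc3, H19 and Dlk1, whose libraries overlapped, and by Igf2, which lay below Dlk1 in each library. At P10 the order was Gpc3, Dlk1 and Afp with no overlap, then H19 and Igf2, which overlapped. Likeness to other genes was measured as Pearson's r of log2(FPKM + 1) over the 9 Cho-Orgs libraries, which share passages, so that any gene high at P0 alone scores high. The 3 genes most like Afp were Hp, Ahsg and Gpam, at 0.9996, 0.9995 and 0.9987. For Igf2 they were Cfhr4, Cyp2c29 and Hrg, at 0.998 each, and for H19 Mcm7, Tyms and Cited1, at 0.998, 0.996 and 0.996. For Dlk1 they were Tmem45a, Tubb4b and Wbp11, at 0.993, 0.989 and 0.987, and for Gpc3 Marcks, Fmo2 and Wfdc15b, at 0.994, 0.987 and 0.985.

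Markers of other cells in Cho-Orgs were read beside these courses. The 12 stellate and mesenchymal markers summed to 60.8 to 75.8 FPKM at P0, 7.60 to 8.44 FPKM at P5, and 0.209 to 0.293 FPKM at P10. At P0 and P5 nearly all of this was Reln, with means of 69.2, 7.36 and, at P10, 0.0816 FPKM, while Col1a1 was at most 0.196 FPKM and Lum was at 0 throughout. The 8 macrophage markers summed to 42.2 to 48.3, 72.1 to 77.3 and 10.1 to 10.5 FPKM, of which Cd68 fell by 1.57 in log2 from P0 to P10, and Lyz2 had 13.2 FPKM at P0 and 0 later, while Clec4f and Vsig4 of Kupffer cells were at 0 in all 9 libraries. The 6 mesothelial markers summed to 97.8 to 125, 541 to 609 and 522 to 530 FPKM, mainly through Msln. The 8 endothelial and 8 blood markers summed to at most 17.8 and 3.00 FPKM. At P5 the endothelial sum was highest, through Tek, while Dlk1 was lowest. The part of these cells in the members' changes was not tested.

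In the hepatocyte table, the comparison of Hep-Orgs with the libraries labelled Pri-Hep and between passages was read for the same 6 genes. Dlk1 was the only member above the filter and none of its 7 comparisons passed the threshold. Over all 10986 genes tested with limma, 0.00910% passed for P1 against Pri-Hep, 0.00910% for P5 and 0% for P10, and 0.0273% passed for P10 against P5. In the other 3 comparisons 0% passed. Unadjusted, p was under 0.05 for between 436 and 1266 genes per comparison, and Dlk1 was not among them. With limma-voom on the fragments recovered, up to 39 genes passed in a comparison, and Dlk1 in none.

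**Figure D4:**
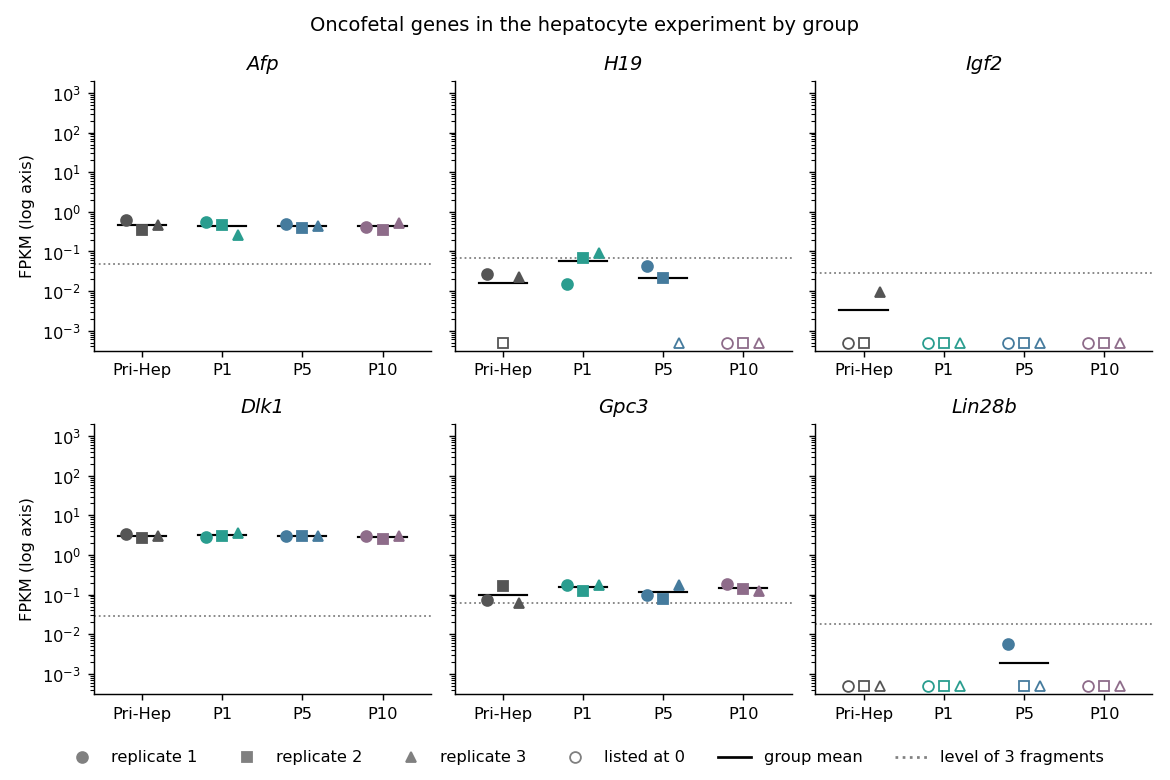
FPKM of the 6 genes on a log axis in the 12 libraries of the hepatocyte table, with the same axis range and symbols as in the plot of the Cho-Orgs libraries. Dlk1 lies between 2.60 and 3.52 FPKM in each library, Afp between 0.259 and 0.616 FPKM, and H19, Igf2 and Lin28b lie near or below the level of 3 fragments.

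Dlk1 had 3.36, 2.77 and 2.95 FPKM in the libraries labelled Pri-Hep and 2.93, 2.99 and 3.52 FPKM at P1. It had 3.10, 3.08 and 3.02 FPKM at P5, and 3.03, 2.60 and 2.99 FPKM at P10, so that the 4 groups overlapped. The log2 differences from Pri-Hep were 0.04, 0.02 and -0.05 at P1, P5 and P10, each with an SE of 0.07 (limma adjusted p = 0.917, 0.963 and 0.919). The difference of all 9 Hep-Orgs libraries from Pri-Hep was 0.00 ± 0.06 (SE, limma adjusted p = 0.994). Between passages the log2 differences were -0.03 for P5 against P1, -0.10 for P10 against P1 and -0.07 for P10 against P5 (limma adjusted p = 1.000, 0.711 and 0.762). The 3 genes most like Dlk1 over the 12 libraries were Tgm2, Unc5b and Ppp1r12c, with r of 0.881, 0.861 and 0.849.

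Afp ranged from 0.259 to 0.616 FPKM in these libraries, with a median of 0.452 FPKM, from 19 to 51 fragments per library. The group means were 0.474 FPKM in the libraries labelled Pri-Hep and 0.426, 0.440 and 0.432 FPKM at P1, P5 and P10, with overlapping libraries. Alb, in contrast, had 106 to 121 FPKM in the libraries labelled Pri-Hep. Gpc3 ranged from 0.0621 to 0.185 FPKM, from 80 fragments in all. H19 had 14 fragments over the 12 libraries and was at 0 in 5 of them, including all 3 at P10. Igf2 had 1 fragment in the library labelled Pri-Hep replicate 3 and Lin28b had 1 fragment in Hep-Orgs P5 replicate 1. A count of 3 fragments corresponded to 0.0192 to 0.0373 FPKM for Igf2 and 0.0121 to 0.0236 FPKM for Lin28b, so levels below these were not detectable. Of the 16 lists of genes, none had a gene past the threshold in any comparison of this table. The endothelial and blood lists had 0 genes tested here and so could have none, and the stellate and mesothelial lists had 1 each. The neighbours of Dlk1 were at 4.26 to 4.83 FPKM for Meg3 and 0.122 to 0.261 FPKM for Mirg.

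In the Smart-Seq table, the 3 shapes of P0 Hep-Orgs were compared with 1 library each and no test, and the 95% intervals below cover counting error only. The shapes differed in different directions for different members. Afp was high in both grape-like and intermediate organoids, H19 was high in grape-like organoids alone, Igf2 was highest in intermediate organoids, and Gpc3 was lowest in grape-like ones. A difference of at least 2-fold on FPKM + 1 was found in the higher direction in 12.9% of 12595 genes for grape-like against round-like, and in the lower direction in 8.82%. For the 5 members listed, 4 were higher and 1 was lower in this comparison. For intermediate against round-like, 3.85% of the genes were higher by that size, and so were Afp, H19 and Igf2. For grape-like against intermediate, 9.71% were higher and 7.15% lower, with H19 among the first and Gpc3 among the second.

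**Figure D5:**
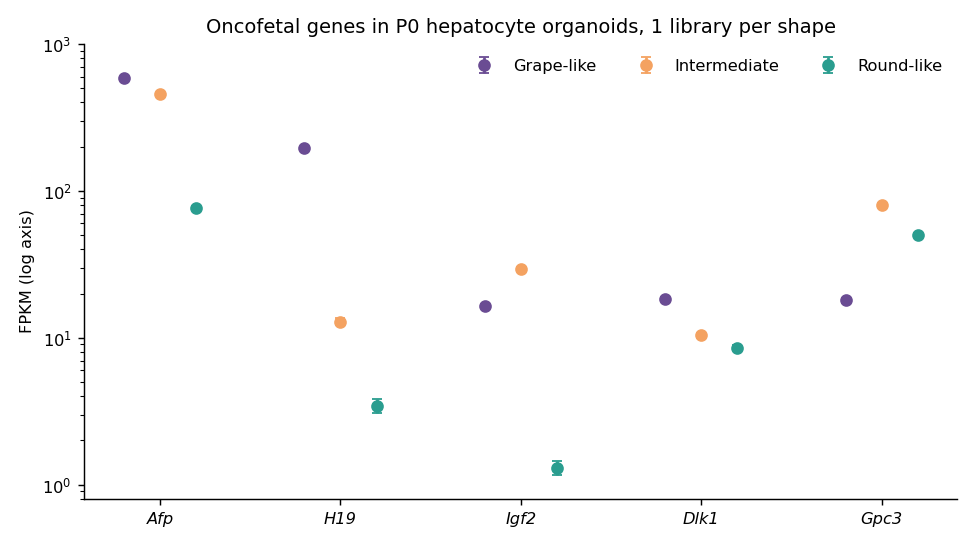
FPKM of the 5 members listed on a log axis, with 1 colour for the library of each shape and bars for the exact Poisson 95% interval of the fragment count, which is smaller than the point for most. H19 drops from 195 FPKM (grape-like) to 3.43 FPKM (round-like).

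H19 stood at 195 FPKM in grape-like, 12.9 FPKM in intermediate and 3.43 FPKM in round-like organoids. The grape-like library was 57.0-fold above the round-like one, a log2 ratio of 5.83 (95% interval 5.68 to 5.99), and 15.2-fold above the intermediate one. On the log2(FPKM + 1) scale these ratios were 5.47 and 3.82, and no other of the 12595 genes had a higher ratio in either comparison. Igf2, 72622 bases away, had 16.5, 29.5 and 1.30 FPKM in the same order. It was 12.7-fold higher in the grape-like and 22.7-fold higher in the intermediate than in the round-like library, with log2 ratios of 3.66 (3.49 to 3.83) and 4.50 (4.34 to 4.67). Between grape-like and intermediate, H19 and Igf2 thus went in opposite directions, with Igf2 1.79-fold lower in the grape-like library.

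Afp stood at 584, 456 and 76.8 FPKM, again from grape-like over intermediate to round-like, ranking 86, 132 and 895 among the genes of each library. The log2 ratio was 2.57 (2.54 to 2.60) for intermediate to round-like. Alb had 3649, 5729 and 565 FPKM, Afm 29.6, 32.3 and 4.44 FPKM and Gc 349, 806 and 145 FPKM, so that the albumin family was lowest in the round-like library and Afp was its only gene with the highest level in the grape-like one. The 12 adult hepatocyte markers summed to 5638, 9428 and 1357 FPKM.

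Dlk1 had 18.4, 10.4 and 8.57 FPKM, 2.15-fold higher in the grape-like than in the round-like library (log2 ratio 1.11, 1.03 to 1.18). Its neighbours ran the other way. Rian had 47.6, 83.1 and 171 FPKM, Meg3 9.51, 14.4 and 26.8 FPKM and Mirg 2.79, 6.63 and 12.3 FPKM, which were 3.60, 2.82 and 4.41-fold higher in the round-like than in the grape-like library. Gpc3 had 18.0, 80.6 and 50.4 FPKM and was 2.81-fold lower in the grape-like than in the round-like library (log2 ratio -1.49, -1.57 to -1.42) and 4.49-fold lower than in the intermediate one. Hmga1 had 9.83, 13.3 and 25.3 FPKM.

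Markers of other cells also moved with shape in these libraries. All 12 stellate and mesenchymal markers were above 0 in each library and summed to 1859, 479 and 403 FPKM, in the order grape-like, intermediate and round-like, led by Dcn at 658, 157 and 102 FPKM. All 8 macrophage markers were above 0 and summed to 8711, 2575 and 1393 FPKM, led by Lyz2. The 8 endothelial markers summed to 128, 50.8 and 22.3 FPKM, and the blood markers to 32.8, 11.4 and 5.35 FPKM, with Hbb-bs at 0 in each library. The 10 cholangiocyte markers summed to 902, 3560 and 2996 FPKM, led by Spp1 at 796, 2899 and 2107 FPKM. Unlike Spp1, Krt19 was highest in the round-like library, at 9.86, 208 and 272 FPKM, and so were Krt7, Epcam and Sox9. The 10 proliferation genes summed to 442, 358 and 648 FPKM. H19, Afp and Dlk1 were ordered across the shapes like the stellate, macrophage, endothelial and blood sums, whereas Igf2 and Gpc3 were highest in the intermediate library. The part of these cells in the members' levels was not tested.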

How the data were processed

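Bulk poly(A) RNA from 21 libraries and amplified full-length cDNA from 3 Smart-Seq libraries were sequenced. The authors deposited FPKM in 3 tables, with 1 column per library and no pooled column. The submitters' processing notes name featureCounts 2.0.3, edgeR 3.40.2 and the build mm10, and the aligner was not given in the sources used here. Samples were grouped by their labels, with 3 libraries per bulk group and 1 per Smart-Seq group.

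FPKM multiplied by gene length gave whole fragments (within 0.01) in the hepatocyte table. In the other tables, depth was estimated from the value steps of single-transcript genes of GENCODE M21. FPKM is not a count, so limma 3.58.1 (R 4.3.3, lmFit, eBayes with trend, two-sided) was run on log2(FPKM + 1) for genes with at least 1 FPKM in 3 or more libraries, each table on its own, with Benjamini-Hochberg adjustment over all genes tested and a threshold of 0.05. Adding 1 understates the folds of low genes, and folds in the text are ratios of mean FPKM unless given as log2. Smart-Seq libraries were compared as ratios, and their intervals treat the log ratio of both fragment counts as normal. The floor was 3 fragments per library. Intervals and floors cover counting error only, since no molecular identifiers were used. Python 3.11.15 with pandas 2.3.3, numpy 2.4.6, scipy 1.17.1 and, for figures, matplotlib 3.10.9 did the rest. The model was tested on simulated data with less spread between libraries than H19, Igf2, Dlk1 and Gpc3 had at P0. That test does not cover such spread. Where libraries are cultures of 1 animal each, p-values measure the spread between 3 animals.

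The 6 members and the 16 gene lists were chosen with earlier results of these data known. Named genes are all members, and per list the most abundant gene and up to 4 called genes with the largest change from P0 to P10 in Cho-Orgs, plus the 3 genes most like each tested member. Genes named beyond that rule were chosen after their values were seen. The shared mouse numbers come from the study's legends, whereas its methods describe the replicates as independent cultures. Deviations of libraries with the same number had a median correlation of -0.0063 over 9 pairs in the cholangiocyte table and -0.0016 over 18 pairs in the hepatocyte table, beside -0.0030 and -0.0018 for different numbers. Between P0 and P5 of Cho-Orgs, however, pairs with the same number had 0.119, 0.0903 and 0.0702. Pairs with different numbers there had -0.124 to 0.0505. The main model had no block. Alternatives were a pseudocount of 0.1, all genes above 0, median-ratio size factors, TPM, a replicate block, eBayes without trend, the groups compared alone, each library left out, and limma-voom on recovered fragments in the hepatocyte table.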

Additional observations from a re-analysis of the deposited data

How the results depend on the processing

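The number of members called was 5, 5 and 2 for P5 against P0, P10 against P0 and P10 against P5 of Cho-Orgs, and it ran from 2 to 3 for the last comparison over the alternatives. With the replicate block by mouse number these counts were 5, 5 and 2, and the block changed no member's call and no call of a named list gene from P0 to P10 except that of Mirg. Of the 238 alternative values for the members in Cho-Orgs, 234 kept their direction and side of the threshold, and the other 4 are those of H19 from P5 to P10 given above. The counts of 5 and of 234 include H19 and Igf2 against P0. Both genes passed the filter through P0 alone and had to be lower later, so their part of these counts is no support. For Dlk1 in Hep-Orgs, 129 of 140 values kept both, and 11 changed sign near 0. These values include the median-ratio setting, which could hardly change them. Its size factor was 1.0018 in every library of the hepatocyte table. With TPM, all Hep-Orgs against the libraries labelled Pri-Hep gave -0.0012 (limma adjusted p = 0.997). Leaving out 1 library gave -0.0197 to 0.10 for P1, -0.0298 to 0.0756 for P5, -0.10 to 0.0050 for P10 and -0.0444 to 0.0609 for all Hep-Orgs against the libraries labelled Pri-Hep, and -0.0636 to 0.0367 for P5 against P1 (limma adjusted p of 0.666 to 1.0). Leaving out those 3 libraries altogether, by fitting the groups compared alone, left Dlk1 uncalled between passages.

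Of 909 values of list genes, 880 kept direction and call, 20 lost the call, 4 gained it and 5 changed sign. From P0 to P10, Rian was -0.0432 with median-ratio size factors. Over the fits without 1 library, it ran from -0.28 (without P0 replicate 2) to 0.24, Igfbp7 from -0.0247 (without P0 replicate 1) to 0.53 and Tek from -0.12 (without P0 replicate 2) to 0.31. The causes were not tested. Of 45 Smart-Seq member ratios under other settings, 22 moved beyond the counting interval and none reversed. The count of member pairs of shapes that differ by at least 2-fold was 10 of 15 under every setting tried. When a library is left out of a group of 3, the spread is still shared with the other groups. Depth limits H19 at P10, Igf2 and Lin28b, and the shapes had no replicates.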
